A study of Mus musculus with 6 samples.

Results

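The 48 genes described here encode proteins of DNA replication and mitosis. They were taken as a list of symbols, not by a cut on their measured values, but earlier results of these data were known when the list was chosen. They were found in the files through the NCBI gene number of each row. All 48 were present among 18305 genes. By role, 17 act in DNA replication during S phase, 5 are cyclins or an E2F factor that control the passage from G1 to S phase, and 26 act in mitosis or are expressed with the mitotic programme. All 48 passed the filter on low counts, and their estimated reads per library ranged from 22 to 20563.

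RNA was sequenced from 6 libraries of cultured cells of KM mice, in 3 groups of 2. MEF are embryonic fibroblasts from embryos of 12.5 or 13.5 days post coitum, at passage 3 to 5, and are the untreated controls. CiLC are fibroblasts of the same kind and passage range that were given small molecules from 24 hours after seeding, to convert them to Leydig-like cells; the labels name neither the compounds nor the length of the treatment. LC are Leydig cells, the androgen-making cells of the testis interstitium, prepared from testis tissue and grown for 0 to 1 passages. Cell source and passage number therefore differ together between LC and MEF and cannot be told apart, and between LC and CiLC the treatment differs as well. Whether the libraries of 1 group stem from different cultures or mice is not stated in the labels, so the p-values rest on a spread between libraries that may be technical alone.

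A dividing cell first loads the ring-shaped MCM helicase onto origins of replication, a step called licensing, and then copies its DNA with polymerases that are held on the template by the PCNA clamp. Cyclin D and cyclin E kinases release E2F factors from the retinoblastoma proteins, and E2F factors switch on the replication genes. Mitotic genes are switched on later, in G2 phase, by B-MYB, FOXM1 and the MuvB proteins, and in resting cells the DREAM complex of MuvB and p130 keeps both sets low. Adult Leydig cells divide rarely, whereas fibroblasts in early passage divide readily. In a bulk library, fewer cycling cells and less RNA per cycling cell cannot be told apart.

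Sequence elements known for these programmes were found in many promoters of the list. Windows from 250 bases before to 50 after the start of transcription, from RefSeq on GRCm38.p6, were found for 14 of the 17 replication genes and 20 of the 26 mitotic genes. An E2F match (TTT, then 2 bases that are each C or G, then CG and a last C or G, on either strand) lay in 7 of 14 replication genes (50%) and 2 of 20 mitotic genes (10%), against 8.49% of the 11478 genes tested that had a window. A CHR match (TTTGAA or TTCGAA on either strand; the CHR is the element read by MuvB) lay in 16 of 20 mitotic genes (80%) and 2 of 14 replication genes (14.3%), against 16.8% of genes tested. The CCAAT box (CCAAT on either strand), the site of the factor NF-Y, lay in 17 of 20 mitotic and 10 of 14 replication genes, against 42.8% of genes tested. A CHR and a CCAAT box together were in 15 of 20 mitotic genes (75%) and in 7.07% of genes tested. The mitotic genes with a window but no CHR match were Ccnb1, Mad2l1, Cenpe and Birc5. The searched motifs can overlap each other, some genes have more than 1 window and were counted where any window matched, and over all 27018 genes of the promoter table the shares were 5.14% for E2F, 21.7% for CHR and 41.1% for CCAAT. Matches are letters in a window, and binding was not measured.

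**Figure D1:**
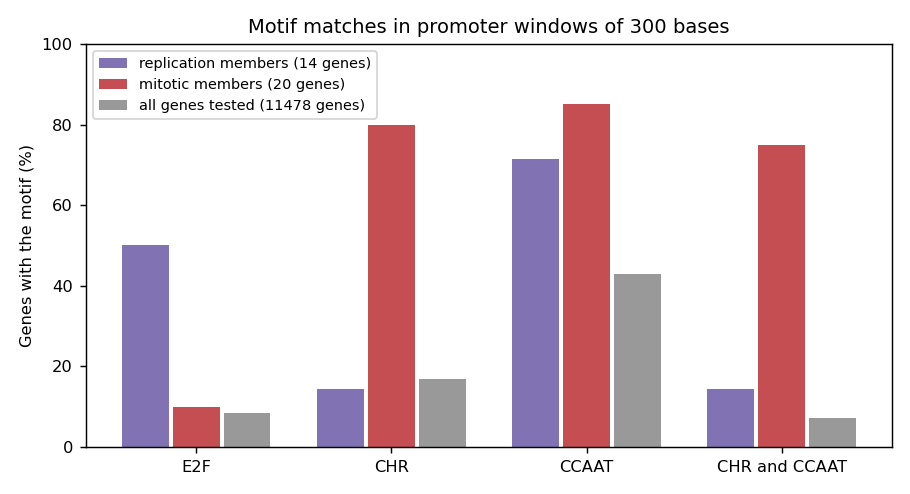
Share of genes (%, vertical axis) whose promoter window of 300 bases holds each motif, for 14 replication genes, 20 mitotic genes and the 11478 genes tested that had a window. E2F matches stand out in replication genes (50%) and CHR matches in mitotic genes (80%).

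Promoters are shown for the replication gene and the mitotic gene with a window that were lowest relative to MEF in CiLC (Mcm5 and Bub1b) and in LC (Cdt1 and Ccnb2), so that the elements can be read. Each stretch runs 5′ to 3′ from 200 bases before to 20 bases after the start of transcription, with motif matches in capitals. They lie at chr8:75109309-75109528 on the plus strand for Mcm5, chr8:122567815-122568034 on the plus strand for Cdt1, chr2:118598011-118598230 on the plus strand for Bub1b and chr9:70421535-70421754 on the minus strand for Ccnb2 (GRCm38.p6).
Mcm5: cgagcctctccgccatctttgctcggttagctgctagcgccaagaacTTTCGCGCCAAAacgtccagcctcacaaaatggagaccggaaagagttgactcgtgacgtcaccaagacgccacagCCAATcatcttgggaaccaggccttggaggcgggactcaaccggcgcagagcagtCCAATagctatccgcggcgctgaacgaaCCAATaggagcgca
Cdt1: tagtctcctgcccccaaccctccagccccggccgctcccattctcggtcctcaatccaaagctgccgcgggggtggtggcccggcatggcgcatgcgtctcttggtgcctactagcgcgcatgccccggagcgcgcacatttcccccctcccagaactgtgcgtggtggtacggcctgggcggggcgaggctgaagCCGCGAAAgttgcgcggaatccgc
Bub1b: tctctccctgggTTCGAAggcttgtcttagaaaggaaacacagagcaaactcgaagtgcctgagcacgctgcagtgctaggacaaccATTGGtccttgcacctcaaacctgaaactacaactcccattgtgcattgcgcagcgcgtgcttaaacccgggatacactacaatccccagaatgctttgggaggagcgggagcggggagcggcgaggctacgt
Ccnb2: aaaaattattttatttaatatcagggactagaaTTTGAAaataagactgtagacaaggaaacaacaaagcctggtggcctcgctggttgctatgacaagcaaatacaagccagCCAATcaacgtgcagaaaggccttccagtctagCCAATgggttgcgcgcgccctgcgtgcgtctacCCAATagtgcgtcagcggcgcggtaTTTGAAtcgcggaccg
In Mcm5 the capitals from -153 to -142 are a pair of overlapping E2F matches on opposite strands, and the other capitals are CCAAT boxes. Cdt1 has an E2F match on the reverse strand across the start site, from -4 to 4, and another from 33 to 40, beyond the printed stretch. Bub1b shows a CHR match from -188 to -183 and a reverse CCAAT box from -113 to -109. Its window holds another CHR match from 41 to 46, beyond the printed stretch. Ccnb2 holds CHR matches from -167 to -162 and from 5 to 10, and 3 CCAAT boxes between -87 and -17.

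Library depth was even, at 18.4 to 18.9 M estimated reads, and levels are given as CPM, counts per M reads of a library total that was adjusted by its scaling factor (trimmed mean of M values). Leydig markers were highest in LC: the 8 markers summed to 1081 to 1109 CPM in LC, 144 to 148 in CiLC and 7.55 to 9.42 in MEF. Among them Cyp17a1, which makes androgen precursors, was at or near 0 in every library including LC (0 and 0.0589 CPM), and Lhcgr, the luteinizing hormone receptor, was at 0.174 and 0.118 CPM in LC. The Leydig sum in LC was carried mainly by Cyp11a1 (718 and 693 CPM), and 5 of the 8 markers passed the filter on low counts. Markers of other cell types also differed between the cultures. The 15 macrophage markers summed to 9726 to 10013 CPM in MEF, 12542 to 12788 in CiLC and 4659 to 5007 in LC, and none was at 0 in any group; 11 of 15 were lower and 2 higher in LC than in MEF, where 35% of all genes tested were lower and 35.7% higher. In CiLC against MEF 8 macrophage markers were lower and 4 higher, against 25.5% and 26.1% of all genes tested. The macrophage sum in CiLC was carried mainly by Lyz2, at 7485 and 7657 CPM in CiLC against 2632 and 2688 in MEF. Cx3cr1 and C1qb were 7.30-fold and 3.15-fold lower in CiLC than in MEF. The 7 Sertoli markers summed to 304 to 306 CPM in LC, 35.2 to 37.9 in CiLC and 17.3 to 18.8 in MEF, and Fshr and Gata1 were at 0 in CiLC and MEF. All 6 Sertoli markers tested were higher in LC than in MEF, where 35.7% of all genes tested were. The 8 endothelial markers summed to 74.7 to 83.4 CPM in LC, 13.2 to 13.5 in CiLC and 28.6 to 28.7 in MEF. The LC sum was carried mainly by Cdh5, at 57.2 and 63.9 CPM in LC against 4.14 and 3.02 in MEF. Kdr ran the other way, at 9.16 and 10.4 CPM in LC against 18.9 and 19.6 in MEF. Of the 6 tested, 3 were higher, 1 lower and 2 not called in LC against MEF, too few to set the list apart from all genes. The 10 germ cell markers found summed to 50.4 to 52.4 CPM in LC, 14.8 to 15.6 in CiLC and 6.76 to 7.91 in MEF. The LC sum was carried mainly by Zbtb16 (28.7 and 28.5 CPM), Uchl1 (11.7 and 9.71) and Kit (9.28 and 8.89). The germ cell genes Ddx4 and Dazl stayed at 0.232 and 0.294 and at 0.232 and 0.589 CPM in LC. Ddx4 was highest in CiLC, at 3.05 and 3.35 CPM against 0.262 and 0.781 in MEF. The 9 fibroblast markers summed to 44683 to 45792 CPM in MEF, 35378 to 35440.3 in CiLC and 32663 to 34162 in LC, sums carried mainly by Fn1 and collagen genes. By gene, CiLC exceeded MEF in 5 of the 9 and fell short in 4 (median 1.05 on the log2 scale), where 26.1% and 25.5% of all genes tested did. In LC against MEF 3 were higher and 6 lower, where 35.7% and 35% of all genes tested were. The share higher in LC lay near that of all genes. Thy1 was at 5.57 and 5.89 CPM in LC against 395 and 396 in MEF. The part of these cell types in the results below was not tested.

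Across the 3 cultures the genes of the list were highest in MEF, intermediate in CiLC and lowest in LC. Both LC libraries lay below both CiLC libraries, and these below both MEF libraries, in 38 of 48 genes, an order found in 14% of all 14581 genes tested. The exceptions were Gins2, Pola1, Rfc4, Ccne2, E2f1, Ccnd2, Cenpe, Cenpf, Anln and Mki67. In 46 of 48 genes both LC libraries were below all 4 others (background 32.9%), with Gins2 and Ccnd2 as the exceptions. In CiLC against MEF, 38 of 48 genes were lower and 2 higher by edgeR's quasi-likelihood test, and 8 were not called, where a gene is called at an adjusted p of 0.05. Over all genes tested 25.5% were lower and 26.1% higher. In LC against MEF all 48 were lower and none higher (background 35% lower and 35.7% higher). In CiLC against LC, 45 were higher and 1 lower, where 35% and 35.6% of all genes tested were. The comparisons share libraries and are not independent. The median log2 fold change of the 48 genes was -0.39 in CiLC against MEF and -1.29 in LC against MEF, beside 0.01 and -0.01 over all genes tested.

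**Figure D2:**
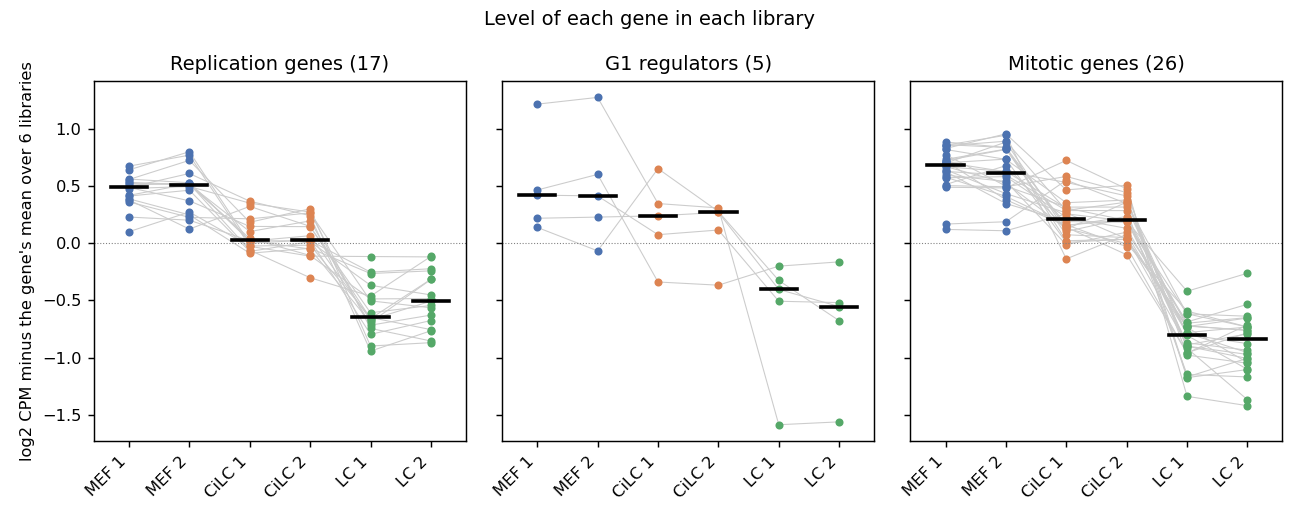
Level of each gene in each library as log2 CPM minus the gene's mean over the 6 libraries (vertical axis), for 17 replication genes, 5 G1 regulators and 26 mitotic genes; points are genes, grey lines join a gene, and black bars are medians. The median of the mitotic genes was 0.69 and 0.61 in the MEF libraries, 0.21 and 0.20 in CiLC and -0.80 and -0.84 in LC.

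The 6 subunits of the MCM helicase, which unwinds DNA at the fork, were lower in CiLC than in MEF in every case, by 1.22- to 1.68-fold, and lower again in LC. Mcm5 (NCBI gene 17218) stood at 47.9 and 51.2 CPM in MEF, 29.5 and 29.7 in CiLC and 19.1 and 17.8 in LC. The 3 cultures did not overlap, and Mcm5 was lower in CiLC than in MEF by 1.68-fold (log2 fold change -0.74 ± 0.06 SE, edgeR adjusted p = 8.13e-10) and in LC by 2.68-fold (log2 fold change -1.42 ± 0.07 SE, edgeR adjusted p = 1.48e-14). Values of Mcm5 were not whole in any library, which can arise when a read fits more than 1 gene, so its level is less certain. Mcm2 (NCBI gene 17216), which had whole values, was at 47.9 and 46.8 CPM in MEF, 32.9 and 34 in CiLC and 20.4 and 22.8 in LC. It was 1.42-fold lower in CiLC (log2 fold change -0.50 ± 0.06 SE, edgeR adjusted p = 4.42e-07) and 2.19-fold lower in LC (log2 fold change -1.13 ± 0.07 SE, edgeR adjusted p = 8.61e-13) than in MEF. Mcm4 had the smallest difference between CiLC and MEF among the 6 (49.9 ± 0.0510 against 60.8 ± 3.48 CPM, mean ± SD of 2 libraries each), with log2 fold change -0.28 ± 0.06 SE, edgeR adjusted p = 0.00023. Mcm3 was at 64.1 and 63.3 CPM in MEF, 47.6 and 50.8 in CiLC and 27.0 and 28.7 in LC. For Mcm6 the values were 82.8 and 82.1 CPM in MEF, 59.3 and 53.5 in CiLC and 41.1 and 41.2 in LC, and for Mcm7 59.2 and 61.3 CPM in MEF, 42.3 and 44.9 in CiLC and 34.4 and 32.5 in LC. The cultures were in the same order in all 6, without overlap. In CiLC against LC, all 6 subunits were higher in CiLC, from 1.30-fold for Mcm7 to 1.77-fold for Mcm3.

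The genes of origin licensing and helicase activation, Cdt1, Cdc6 and Gins2, were all lower than in MEF in both other cultures. Cdt1 (NCBI gene 67177), which brings the helicase to origins, had 30.4 and 34.1 CPM in MEF, 23.5 and 25.5 in CiLC and 11.1 and 11.3 in LC. Its LC libraries lay far below the rest: it was 2.88-fold lower in LC (log2 fold change -1.53 ± 0.09 SE, edgeR adjusted p = 3.78e-13) and 1.32-fold lower in CiLC (log2 fold change -0.40 ± 0.08 SE, edgeR adjusted p = 0.000113) than in MEF. Cdc6, the ATPase that loads the helicase with Cdt1, was at 10.5 and 10.7 CPM in MEF, 7.53 and 7.15 in CiLC and 4.58 and 5.95 in LC, and was lower in CiLC by 1.44-fold and in LC by 2.02-fold. It was also higher in CiLC than in LC (log2 fold change 0.48 ± 0.14 SE, edgeR adjusted p = 0.00491), a call that ended without LC replicate 1 (edgeR adjusted p = 0.102) and with DESeq2 (0.0558). Gins2, a subunit of the GINS complex that activates the helicase, was at 8.44 and 9.06 CPM in MEF, 6.06 and 5.12 in CiLC and 4.58 and 5.83 in LC. It was lower than in MEF in both other cultures, by 1.57-fold in CiLC and 1.68-fold in LC, while CiLC and LC overlapped (edgeR adjusted p = 0.569).

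Of the clamp, clamp loader and polymerase genes, Pole and Pcna were lower in CiLC than in MEF, and Pola1, Prim1 and Rfc4 were not called; all 5 were lower in LC. Pole, the catalytic subunit of the leading strand polymerase, was at 39.8 and 44.4 CPM in MEF, 25.5 and 26 in CiLC and 14.7 and 16 in LC, and was lower in CiLC by 1.63-fold (log2 fold change -0.71 ± 0.07 SE, edgeR adjusted p = 1.04e-08) and in LC by 2.75-fold. Pcna, the sliding clamp, was at 83.1 and 75.4 CPM in MEF, 59.7 and 61.6 in CiLC and 52.8 and 53.7 in LC, lower by 1.31-fold in CiLC and 1.49-fold in LC. The Pcna difference between CiLC and LC was small (log2 fold change 0.19 ± 0.06 SE, edgeR adjusted p = 0.00801), and its call ended without CiLC replicate 2 (edgeR adjusted p = 0.0575), without LC replicate 1 (0.06) and with DESeq2 (0.0537). Polymerase alpha and primase start each new strand. Pola1, the catalytic subunit of polymerase alpha, was at 20.9 and 19.1 CPM in MEF, 18.9 and 19.6 in CiLC and 11.5 and 11 in LC: CiLC overlapped MEF (edgeR adjusted p = 0.613) and LC was lower (1.78-fold). Prim1, the primase subunit that makes the RNA primer, had 11 and 11.9 CPM in MEF, 10.1 and 9.23 in CiLC and 4.06 and 4.59 in LC. Its CiLC libraries were below both MEF libraries without passing the test (edgeR adjusted p = 0.0695), and LC was 2.64-fold lower than MEF. Rfc4, a subunit of the clamp loader, was at 5.71 and 4.79 CPM in MEF, 5.5 and 4.87 in CiLC and 2.78 and 3.53 in LC, with CiLC overlapping MEF (edgeR adjusted p = 0.938) and LC 1.66-fold lower.

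The 3 genes of nucleotide supply were lower in CiLC than in MEF by 1.13- to 1.2-fold. Rrm1, the large subunit of ribonucleotide reductase, was at 88.7 and 87.1 CPM in MEF, 76.8 and 76.9 in CiLC and 63.5 and 64.9 in LC (CiLC 1.14-fold lower than MEF, log2 fold change -0.19 ± 0.05 SE, edgeR adjusted p = 0.00231). Rrm2, its regulated small subunit, was at 40.4 and 40.9 CPM in MEF, 36.9 and 35.0 in CiLC and 17.3 and 16 in LC. LC was 2.44-fold lower than MEF for Rrm2, and 1.37-fold lower for Rrm1. The lower Rrm2 in CiLC than in MEF (log2 fold change -0.18 ± 0.06 SE, edgeR adjusted p = 0.0228) was no longer called without CiLC replicate 2 (edgeR adjusted p = 0.179), without MEF replicate 2 (0.0873) and with DESeq2 (0.181). Tyms, which makes thymidylate, was at 42.9 and 48.3 CPM in MEF, 39.2 and 37.0 in CiLC and 36.9 and 36.8 in LC: CiLC and LC were below MEF, by 1.2-fold and 1.24-fold, and CiLC and LC were not called apart (edgeR adjusted p = 0.539). The CiLC call of Tyms was lost without MEF replicate 2 (edgeR adjusted p = 0.0661). Of the 17 replication genes, 14 had a lower level in CiLC than in MEF and none a higher one (median of the log2 fold changes -0.39, all genes tested 25.5% and 26.1%). In LC against MEF 17 were lower (median -1.01, all genes tested 35%), and 15 were higher in CiLC than in LC (median 0.68, all genes tested 35%).

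Of the 5 G1 regulators, 3 were lower, 1 higher and 1 not called in CiLC against MEF, where 25.5% of all genes tested were lower and 26.1% higher. These counts are too small to set the 5 genes apart from all genes. All 5 were lower in LC than in MEF, where 35% of all genes tested were. Cyclin D1 (Ccnd1, NCBI gene 12443), the mitogen-induced partner of the G1 kinases, was at 526 and 548 CPM in MEF, 288 and 280.3 in CiLC and 75.3 and 76.6 in LC. The cultures were well apart: Ccnd1 was 1.89-fold lower in CiLC (log2 fold change -0.92 ± 0.04 SE, edgeR adjusted p = 3.47e-14) and 7.07-fold lower in LC (log2 fold change -2.82 ± 0.05 SE, edgeR adjusted p = 5.77e-23) than in MEF, the lowest log2 fold change among the 48 genes in LC. Cyclin D2 (Ccnd2, NCBI gene 12444), its close relative, was at 974 and 1070.3 CPM in MEF, 557 and 547 in CiLC and 614 and 629.7 in LC. MEF were highest and LC lay slightly above CiLC, so that Ccnd2 was the only gene of the list called lower in CiLC than in LC (log2 fold change -0.17 ± 0.05 SE, edgeR adjusted p = 0.0037). That call ended without CiLC replicate 2 (edgeR adjusted p = 0.0661) and with upper quartile scaling (0.116).

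The E cyclins drive entry into S phase. Cyclin E1 (Ccne1) was at 24.1 and 23.9 CPM in MEF, 18.9 and 19.5 in CiLC and 12.6 and 12.5 in LC, in the order of the replication genes, with CiLC 1.25-fold and LC 1.91-fold below MEF. Cyclin E2 (Ccne2) was at 4.56 and 3.96 CPM in MEF, 6.51 and 5.02 in CiLC and 3.31 and 2.59 in LC. It was higher in CiLC than in MEF (log2 fold change 0.44 ± 0.17 SE, edgeR adjusted p = 0.0378), but the call ended without CiLC replicate 1 (edgeR adjusted p = 0.411), without MEF replicate 2 (0.215), without a filter (0.0872) and with DESeq2 (0.231). Its lower level in LC than in MEF (log2 fold change -0.53 ± 0.20 SE, edgeR adjusted p = 0.0233) was lost without MEF replicate 1 (edgeR adjusted p = 0.129), without LC replicate 2 (0.203), without a filter (0.0555) and with DESeq2 (0.121). E2f1, the activator that drives replication genes, was at 51.8 and 52.2 CPM in MEF, 52.6 and 53.7 in CiLC and 33.6 and 30.3 in LC. CiLC and MEF were not called apart (log2 difference 0.03 ± 0.06 SE), and LC was 1.62-fold lower than MEF (log2 fold change -0.70 ± 0.06 SE, edgeR adjusted p = 1.16e-09). Values of Ccne2, E2f1 and Ccnd1 were not whole in any library.

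**Figure D3:**
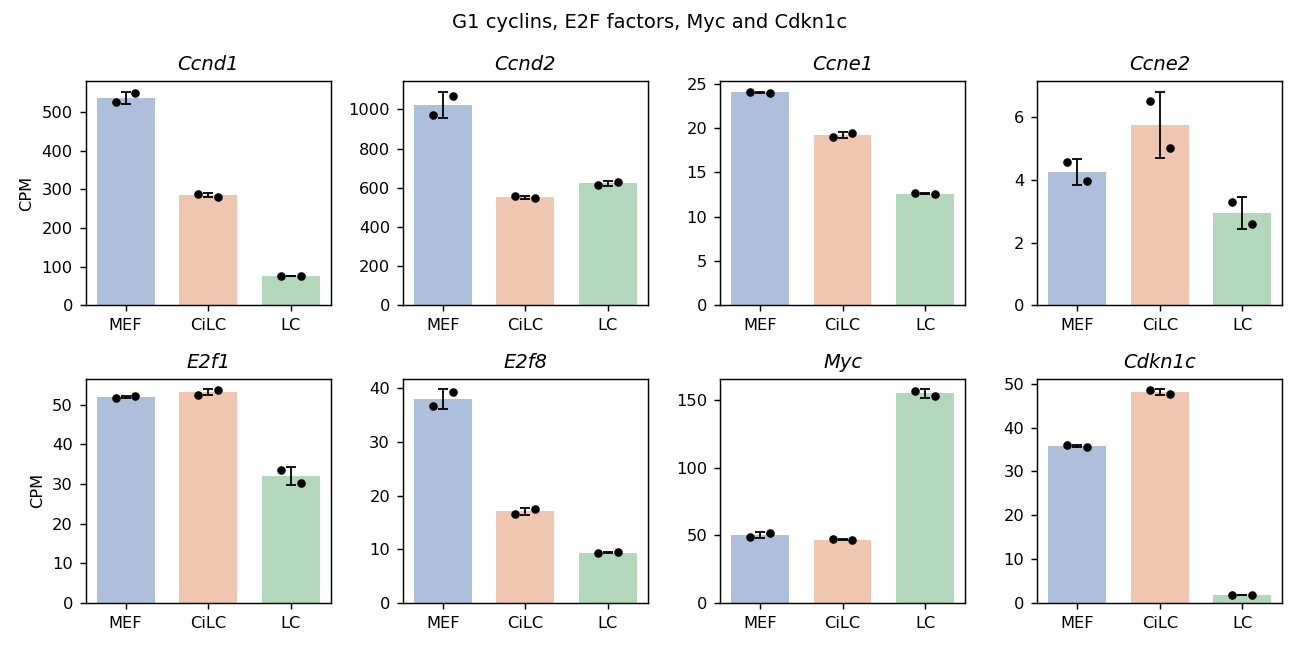
CPM (vertical axes, from 0) of the 5 G1 regulators and of E2f8, Myc and Cdkn1c in MEF, CiLC and LC; points are libraries, bars their mean and error bars the SD of 2. Ccnd1 steps down from MEF to CiLC to LC, E2f1 is level in MEF and CiLC, and Myc is highest in LC (157 and 153 CPM).

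Mitotic cyclins, kinases and their controls were lower in CiLC than in MEF in 8 of 9 cases and in LC in all 9 (all genes tested 25.5% and 35%). Aurkb (NCBI gene 20877), the kinase of the chromosome passenger complex, was at 24.8 and 26.4 CPM in MEF, 12.5 and 14.5 in CiLC and 7.94 and 7.06 in LC. Its groups did not overlap, and it was 1.9-fold lower in CiLC (log2 fold change -0.93 ± 0.09 SE, edgeR adjusted p = 1.08e-08) and 3.41-fold lower in LC (log2 fold change -1.77 ± 0.11 SE, edgeR adjusted p = 4.86e-13). Plk1, the kinase that matures the spindle poles, was at 31.1 and 30.6 CPM in MEF, 18.9 and 16 in CiLC and 8.81 and 9.95 in LC, with CiLC 1.77-fold and LC 3.29-fold below MEF. Foxm1, the transcription factor of the mitotic genes, was at 57.9 and 61.6 CPM in MEF, 36.6 and 36 in CiLC and 18.8 and 20.1 in LC, 1.64-fold lower in CiLC (log2 fold change -0.72 ± 0.06 SE, edgeR adjusted p = 4.84e-10) and 3.07-fold lower in LC. For both genes all CiLC and LC libraries lay below both MEF libraries.

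The cyclins A2, B1 and B2 were lower in both cultures, by 1.22- to 1.33-fold in CiLC and 2.92- to 4.83-fold in LC. Ccnb2 (NCBI gene 12442), a B cyclin that partners Cdk1, was at 18.8 and 20.5 CPM in MEF, 14.6 and 15 in CiLC and 4.17 and 3.94 in LC. It was 1.33-fold lower in CiLC (log2 fold change -0.41 ± 0.09 SE, edgeR adjusted p = 0.000621) and 4.83-fold lower in LC (log2 fold change -2.27 ± 0.13 SE, edgeR adjusted p = 4.42e-14), and no mitotic gene had a lower log2 fold change in LC. Ccnb1, the other B cyclin, was at 21.1 and 20.6 CPM in MEF, 16.6 and 17.5 in CiLC and 7.31 and 6.95 in LC, and Ccna2, cyclin A2 of S and G2 phase, at 43.5 and 42.3 CPM in MEF, 33.9 and 31.4 in CiLC and 15 and 14.3 in LC. For both cyclins the 3 cultures did not overlap. Cdk1, the kinase of mitotic entry, was at 23.6 and 22.7 CPM in MEF, 15.5 and 16.7 in CiLC and 9.68 and 10.8 in LC, 1.44-fold lower in CiLC and 2.26-fold lower in LC. Aurka, the kinase of the spindle poles, was at 14.6 and 13.0 CPM in MEF, 10.9 and 11.3 in CiLC and 6.03 and 6.24 in LC. The lower calls in CiLC ended for Ccnb1 without CiLC replicate 1 (edgeR adjusted p = 0.0554) and with DESeq2 (0.102), and for Aurka without CiLC replicate 1 (0.0694), without MEF replicate 1 (0.13) and with DESeq2 (0.146). Cdc25c, the phosphatase that activates Cdk1, had the fewest reads of the list, at 3.62 and 2.86 CPM in MEF, 2.44 and 2.59 in CiLC and 1.33 and 1.30 in LC: it was not called between CiLC and MEF (edgeR adjusted p = 0.172) and was 2.46-fold lower in LC (log2 fold change -1.30 ± 0.27 SE, edgeR adjusted p = 9.54e-05).

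All 5 genes of the spindle checkpoint and the anaphase promoting complex were lower in CiLC and in LC than in MEF (all genes tested 25.5% and 35%). Bub1b (NCBI gene 12236), the checkpoint protein BubR1, whose promoter is printed above, was at 32.5 and 31.4 CPM in MEF, 17.9 and 18 in CiLC and 10.6 and 8.54 in LC. The MEF libraries stood apart from the rest, with CiLC 1.78-fold lower (log2 fold change -0.83 ± 0.08 SE, edgeR adjusted p = 8.82e-09) and LC 3.35-fold lower (log2 fold change -1.74 ± 0.10 SE, edgeR adjusted p = 7.73e-14). Cdc20, the activator of the anaphase promoting complex, was at 15.5 and 16.6 CPM in MEF, 10.5 and 9.18 in CiLC and 4.81 and 5.71 in LC, 1.63-fold lower in CiLC and 3.04-fold in LC. The checkpoint genes Bub1 and Mad2l1 and the ubiquitin-conjugating enzyme Ube2c of that complex were 1.25-fold, 1.24-fold and 1.28-fold lower in CiLC and 3.01-fold, 2.24-fold and 2.7-fold lower in LC. Bub1 was at 18.4 and 15.2 CPM in MEF, 13.4 and 13.4 in CiLC and 6.15 and 5.00 in LC. Mad2l1 stood at 22.8 and 18.8 CPM in MEF, 16.8 and 16.8 in CiLC and 9.63 and 8.89 in LC, and Ube2c at 23.0 and 25.8 CPM in MEF, 17.6 and 20.7 in CiLC and 9.28 and 8.77 in LC. The CiLC libraries of all 3 lay below MEF, but their calls depended on single libraries. Bub1 lost its call without CiLC replicate 1 (edgeR adjusted p = 0.0545), CiLC replicate 2 (0.0584) or MEF replicate 1 (0.224), without a filter (0.051) and with DESeq2 (0.119). Mad2l1 lost it without CiLC replicate 2 (edgeR adjusted p = 0.0507) or MEF replicate 1 (0.224) and with DESeq2 (0.0939), and Ube2c without CiLC replicate 1 (0.066) or MEF replicate 2 (0.0538).

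Among genes of the centromere, Cenpa, the histone that marks it, was at 12.3 and 14 CPM in MEF, 8.14 and 8.82 in CiLC and 4.06 and 3.77 in LC, and Birc5, the passenger protein survivin, at 22.4 and 20.3 CPM in MEF, 15.4 and 14 in CiLC and 9.34 and 8.48 in LC. CiLC was 1.55-fold below MEF for Cenpa and 1.45-fold below for Birc5, and LC was 3.36-fold and 2.4-fold below. The kinetochore genes Cenpe and Cenpf were not lower in CiLC. Cenpe (NCBI gene 229841), the kinesin that aligns chromosomes, was at 17.2 and 17.4 CPM in MEF, 22.4 and 19.5 in CiLC and 9.97 and 9.83 in LC: CiLC lay above MEF (log2 fold change 0.28 ± 0.09 SE, edgeR adjusted p = 0.0125) and LC was 1.75-fold below MEF. The CiLC call ended without CiLC replicate 1 (edgeR adjusted p = 0.215), without MEF replicate 1 (0.0595) and with DESeq2 (0.134). Cenpf, a large protein of the outer kinetochore, was at 17.8 and 17.7 CPM in MEF, 20.9 and 17.6 in CiLC and 5.62 and 6.30 in LC; CiLC overlapped MEF (edgeR adjusted p = 0.313), and LC was 2.97-fold lower than MEF and 3.23-fold lower than CiLC.

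Spindle motors and genes of cytokinesis were lower in CiLC than in MEF in 5 of 6 cases (all genes tested 25.5%). Kif23, the central spindle kinesin, was at 23.4 and 24.1 CPM in MEF, 15.8 and 15.8 in CiLC and 5.86 and 5.77 in LC, 1.5-fold lower in CiLC (log2 fold change -0.59 ± 0.08 SE, edgeR adjusted p = 2.93e-06) and 4.09-fold lower in LC (log2 fold change -2.03 ± 0.11 SE, edgeR adjusted p = 2.45e-14). Tpx2, which nucleates spindle microtubules, was at 68.4 and 69.9 CPM in MEF, 42.2 and 43.1 in CiLC and 25.4 and 24.8 in LC, and Kif20a, a kinesin of the midzone, at 28.5 and 26.8 CPM in MEF, 20.6 and 20.9 in CiLC and 8.52 and 6.24 in LC. Kif11, the kinesin that pushes the spindle poles apart, was at 31 and 29.3 CPM in MEF, 27.5 and 25.3 in CiLC and 8.41 and 8.83 in LC. Its LC libraries were 3.5-fold below MEF, whereas the small difference in CiLC (log2 fold change -0.19 ± 0.07 SE, edgeR adjusted p = 0.0312) was lost without CiLC replicate 2 (edgeR adjusted p = 0.245), without MEF replicate 1 (0.172), without a filter (0.053) and with DESeq2 (0.217). Ect2, the exchange factor that starts furrowing, was at 19.97 and 17.3 CPM in MEF, 15.4 and 13.1 in CiLC and 7.71 and 8.12 in LC. It was 1.31-fold lower in CiLC, a call lost without CiLC replicate 2 (edgeR adjusted p = 0.0668) or MEF replicate 1 (0.0606), and 2.35-fold lower in LC. Anln, the scaffold anillin of the contractile ring, was at 42.8 and 42.4 CPM in MEF, 47 and 45 in CiLC and 29.4 and 32.8 in LC: it was not called between CiLC and MEF (edgeR adjusted p = 0.14), and its fold between LC and MEF, 1.37-fold lower, was the smallest among the 26 mitotic genes.

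The proliferation markers Top2a and Mki67, both used to label dividing cells, are read side by side here. Top2a (NCBI gene 21973), the topoisomerase that untangles chromosomes, was at 187 and 188 CPM in MEF, 147 and 137 in CiLC and 72.9 and 75.5 in LC, with CiLC 1.32-fold lower than MEF (log2 fold change -0.40 ± 0.05 SE, edgeR adjusted p = 2.33e-07). Mki67 (NCBI gene 17345), the gene of the Ki-67 protein that coats mitotic chromosomes, was at 151 and 149.7 CPM in MEF, 159 and 145 in CiLC and 53.9 and 51.3 in LC. CiLC and MEF overlapped for Mki67 (log2 difference 0.02 ± 0.05 SE, edgeR adjusted p = 0.813). In LC both were lower than in MEF, Top2a by 2.52-fold and Mki67 by 2.85-fold (log2 fold change -1.51 ± 0.06 SE, edgeR adjusted p = 8.3e-17). Whether the difference of Mki67 between CiLC and MEF departs from that of Top2a was not tested.

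**Figure D4:**
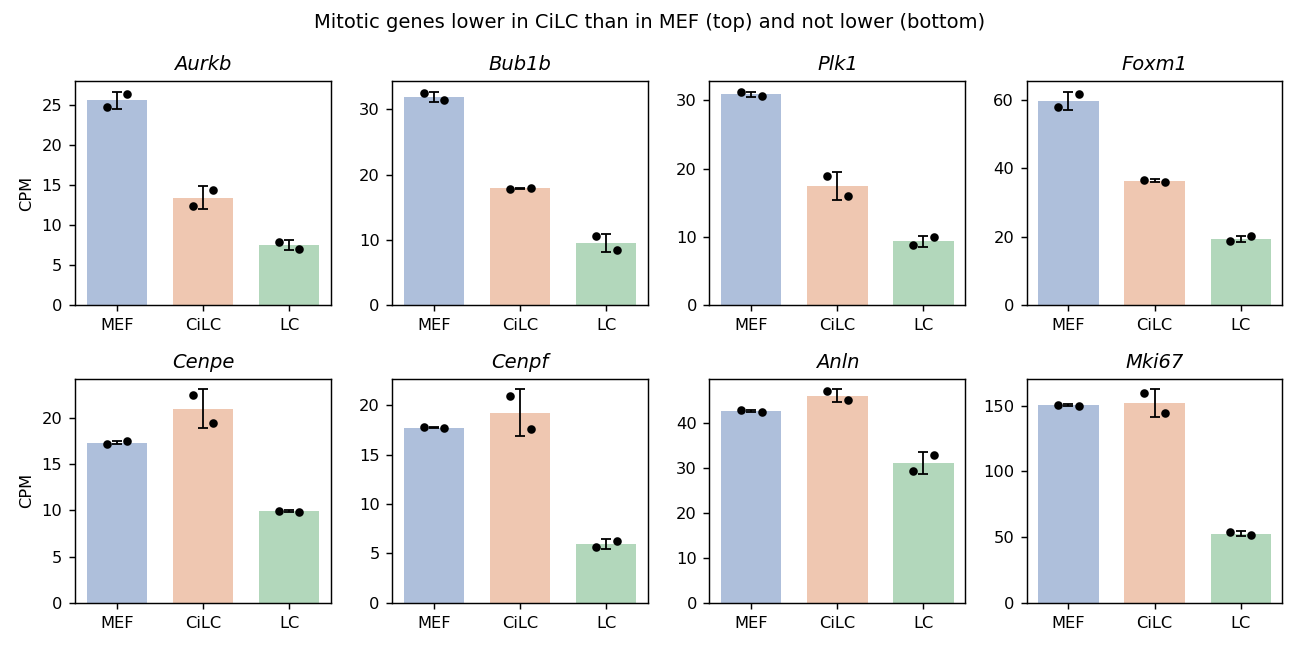
CPM (vertical axes, from 0) of 4 mitotic genes that were lower in CiLC than in MEF (top) and of the 4 whose estimate was not below MEF (bottom), by culture; points are libraries, bars their mean and error bars the SD of 2. Cenpe, Cenpf, Anln and Mki67 are as high in CiLC as in MEF or higher, and all 8 are lowest in LC.

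Set beside each other, replication and mitotic genes had nearly equal medians in CiLC against MEF, and the median of the mitotic genes was the lower in LC against MEF. The median log2 fold change in CiLC against MEF was -0.39 for replication genes and -0.40 for mitotic genes. In LC against MEF it was -1.01 (2.01-fold lower) for replication genes and -1.55 (2.93-fold lower) for mitotic genes, and in CiLC against LC 0.68 and 0.93. Per library, the median level relative to a gene's mean was -0.65 and -0.51 for replication and -0.80 and -0.84 for mitotic genes in LC, and 0.49 and 0.51 against 0.69 and 0.61 in MEF. The log2 fold changes in LC overlapped between the sets, from -1.53 to -0.31 for replication and from -2.27 to -0.45 for mitotic genes. The difference between the sets was not tested, since genes are not replicates. In CiLC against MEF, 21 of 26 mitotic genes were lower and 1 higher (all genes tested 25.5% and 26.1%). All 26 were lower in LC than in MEF (all genes tested 35%), and all 26 were higher in CiLC than in LC (all genes tested 35%).

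**Figure D5:**
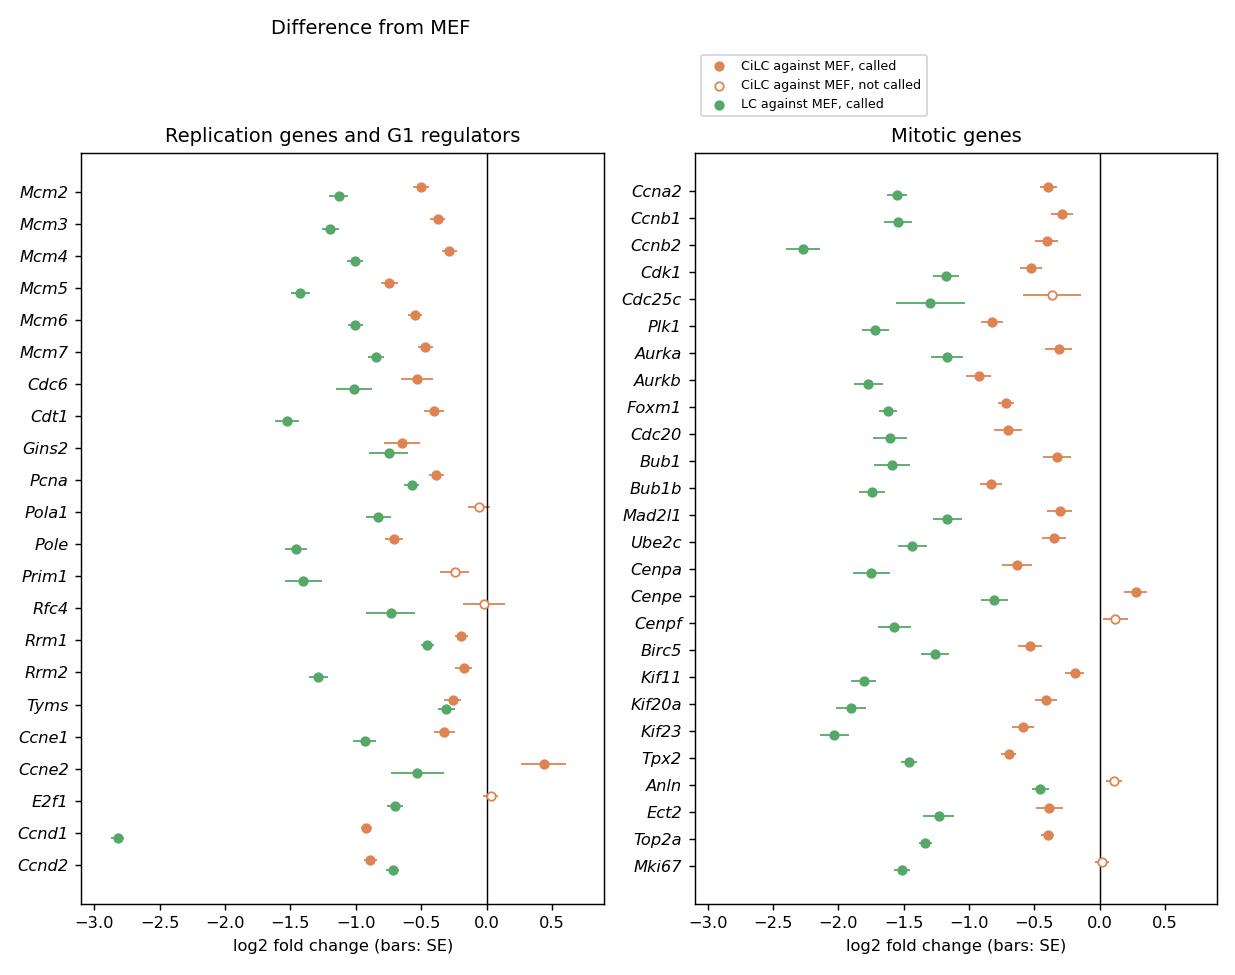
Log2 fold change of each gene (horizontal axis, bars are SE) in CiLC against MEF and LC against MEF; filled points passed edgeR's test at an adjusted p of 0.05, open points did not. Ccnd1 (-2.82) and Ccnb2 (-2.27) lie lowest in LC, and the open points of Mki67, Cenpf, Anln, E2f1, Pola1 and Rfc4 lie near 0 in CiLC.

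Of the mitotic genes that were not lower in CiLC, Cenpf, Mki67 and Cenpe have long transcripts. The part of transcript length was not tested, and which transcript the cells expressed was not measured. By the longest GENCODE transcript, Cenpf has 11130 bases, Mki67 10061 and Cenpe 7910, while Anln has 4605. Among the 26 mitotic genes the log2 fold change in CiLC against MEF had a Pearson correlation of 0.58 with log2 transcript length, given as a description, since the points share the same 4 libraries. The same value was -0.45 among the 17 replication genes and -0.02 over the 14233 genes tested that had a length. In genes of 6000 bases or more, the median was 0.07 for 4 mitotic genes, Cenpf, Mki67 and Cenpe among them, and 0.02 for 1978 genes tested. For LC against MEF the correlation was 0.36 in the mitotic genes and -0.11 over all genes with a length. The remaining mitotic gene of 6000 bases or more, Mad2l1 (7557 bases), was lower in CiLC (-0.31).

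Further genes of the same pathways, from lists set beside the 48, followed their direction with some exceptions. Of 40 other replication genes, 23 were lower and 2 higher in CiLC than in MEF (median -0.28 as log2 fold change), where 25.5% and 26.1% of all genes tested were. In LC against MEF 31 were lower and 2 higher (median -0.52), where 35% and 35.7% of all genes tested were. The 2 higher in CiLC than in MEF were the origin recognition genes Orc3 and Orc5. Dna2, a nuclease that trims Okazaki fragments, was 1.89-fold lower in CiLC, and Tk1, thymidine kinase, 1.89-fold lower (edgeR adjusted p = 7.99e-09). Tk1 was also lower in CiLC than in LC, at 13.4 and 11.8 CPM against 17.7 and 19 (log2 fold change -0.54, edgeR adjusted p = 2.5e-05). Clspn, the fork protein claspin, was 3.06-fold lower in LC than in MEF, and Dna2 3.01-fold lower. Against this direction, Rnaseh2a, the ribonuclease that removes RNA from DNA, was at 17.4 and 16.1 CPM in MEF, 13.6 and 13.9 in CiLC and 34 and 36.7 in LC, so that CiLC was 2.57-fold below LC (edgeR adjusted p = 5.17e-13). The single-strand binding subunit Rpa2 was 2.01-fold higher in CiLC than in LC. An E2F match lay in 15 of 33 of those with a promoter window.

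Of 43 tested among 44 other mitotic genes, 31 were lower and 1 higher in CiLC than in MEF (median -0.50, all genes tested 25.5% and 26.1%). In LC against MEF 41 were lower and 1 higher (median -1.35, all genes tested 35% and 35.7%). The cytokinesis kinase Cit and the kinesin Kif18b were 2.02-fold and 2.02-fold lower in CiLC. In LC, Kif18b was 4.45-fold lower (edgeR adjusted p = 6.64e-14) and Troap, a spindle-associated protein, 4.42-fold lower. Cenpm, a protein of the inner kinetochore, ran the other way at 3.35 and 2.97 CPM in MEF, 1.68 and 1.93 in CiLC and 10.4 and 9.12 in LC, with CiLC 5.39-fold below LC (edgeR adjusted p = 1.39e-11). Ckap2, a microtubule protein, was 3.64-fold higher in CiLC than in LC. A CHR match was present in 27 of 38 of those with a promoter window.

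In the network of E2F, retinoblastoma and DREAM genes, 11 of 22 were lower and 2 higher in CiLC relative to MEF (all genes tested 25.5% and 26.1%). In LC against MEF 16 were lower and 3 higher (all genes tested 35% and 35.7%). The late repressors E2f8 and E2f7 had the largest differences. E2f8 was at 36.6 and 39.2 CPM in MEF, 16.6 and 17.5 in CiLC and 9.28 and 9.48 in LC, 2.22-fold lower in CiLC (edgeR adjusted p = 7.14e-12) and 4.04-fold lower in LC (8.97e-16). E2f7 was at 13.9 and 16.8 CPM in MEF, 6.67 and 7.20 in CiLC and 4.12 and 3.71 in LC, 2.21-fold and 3.92-fold lower. For E2f7 and E2f8 all CiLC libraries lay below both MEF libraries. Cdk6, a G1 kinase, was 2.53-fold higher in CiLC than in LC, and the pocket protein gene Rbl1 2.01-fold higher.

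Inhibitors of the cyclin-dependent kinases, which hold cells in G1, were called in both directions. Of 7, 5 were lower and 2 higher in LC than in MEF (all genes tested 35% and 35.7%), and in CiLC 3 were higher and 2 lower (all genes tested 26.1% and 25.5%), counts too small to set the list apart from all genes. Cdkn1c, the inhibitor p57, was at 36 and 35.6 CPM in MEF, 48.5 and 47.6 in CiLC and 1.74 and 1.71 in LC, 20.7-fold lower in LC than in MEF (edgeR adjusted p = 9.93e-20) and 1.34-fold higher in CiLC than in MEF (2.33e-06). Cdkn2a, the locus of p16 and p19ARF that rises with passage in cultured fibroblasts, was at 21.8 and 19.99 CPM in MEF, 24.7 and 29 in CiLC and 1.45 and 0.824 in LC, 18.2-fold lower in LC than in MEF. Passage number differs between these cultures, and its part was not tested.

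Of 17 genes induced early by growth factors, 9 were lower and 6 higher in CiLC than in MEF (all genes tested 25.5% and 26.1%), and 7 were lower and 7 higher in LC than in MEF (all genes tested 35% and 35.7%). The shares in LC and the share higher in CiLC lay near those of all genes and are no result about the list. Fosl1, a Fos family factor, was at 0.577 and 0.260 CPM in MEF, 1.07 and 1.93 in CiLC and 37.7 and 43.9 in LC, 96.1-fold higher in LC than in MEF (edgeR adjusted p = 1.16e-18), and Ier3, an early response gene, was 8.19-fold higher. Mycn, a Myc family factor, was at 0.105 and 0.364 CPM in MEF, 2.24 and 2.38 in CiLC and 0.290 and 0.530 in LC, higher in CiLC than in MEF (edgeR adjusted p = 1.55e-06). Myc itself, named here after its values were seen, was at 48.9 and 51.8 CPM in MEF, 47.3 and 46.3 in CiLC and 157 and 153 in LC (log2 fold change 1.62 in LC against MEF, edgeR adjusted p = 3.52e-18). Fos, also named after its values were seen, ran the other way, at 750 and 802 CPM in MEF, 413 and 432 in CiLC and 378 and 427 in LC. Its log2 fold change in LC against MEF was -0.95 (edgeR adjusted p = 2.22e-13).

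Direction was more secure than the calls in CiLC against MEF. Leaving out single libraries and changing the tool, scaling, filter, libraries or block reversed no called gene of the list, while differences that were not called changed sign in some settings for Cenpf, Mki67, Pola1 and Rfc4 in CiLC against MEF and for Gins2 in CiLC against LC. In CiLC against MEF 29 of 40 calls held in every such setting that tested the gene. The numbers were 47 of 48 in LC against MEF and 43 of 46 in CiLC against LC. The filter at a mean of 5 CPM kept only 45 of the 48 genes, so calls of the genes it removed were not checked there. The fitted spread was small (a biological coefficient of variation of 3.16%), and with a coefficient of 0.4 assumed for every gene no replication or mitotic gene was called in CiLC against MEF, and 11 of 26 mitotic and 0 of 17 replication genes were called in LC against MEF.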

How the data were processed

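RNA was sequenced from 6 libraries, grouped as MEF, CiLC and LC by their titles. The authors deposited expected counts, that is estimated reads per gene with no scaling to library size (per the file headers), after aligning reads with HISAT to mm9 (per the submitters' processing notes). Per library, 32.4% to 32.8% of values were not whole. Not given in the sources used here are versions, counting tool, annotation and strandedness, so reads of overlapping genes cannot be told apart. Of the 48 genes, 18 had a value that was not whole in some library, Mcm5, Gins2, Rfc4, Tyms, Ccne2, E2f1, Ccnd1, Ccna2, Ube2c, Birc5, Kif11, Kif20a and Tpx2 in all 6. Rows carry NCBI gene numbers, and 18179 of 18305 matched a symbol in the RefSeq gene table of GRCm38.p6; no gene positions were taken from it, since the builds differ. The promoter windows are RefSeq's on GRCm38.p6.

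These counts were rounded and entered edgeR 4.0.16 (R 4.3.3). There filterByExpr (minimum count 10, minimum total 15) kept 14581 genes, scaling was by trimmed means of M values (TMM), and all 6 libraries shared 1 quasi-likelihood fit on group alone. P-values are two-sided, adjusted after Benjamini-Hochberg over all 14581 genes, and called at 0.05. Folds derive from log2 fold changes with a prior count of 0.125. The procedure was tested on simulated data. Alternatives were DESeq2 1.42.0, other filters (none, or a mean of at least 5 CPM), upper quartile scaling, only the 4 libraries compared, a replicate block, leaving out each library, and assumed coefficients of variation of 0.1 and 0.4. The 2 libraries of a group differed by more than sampling noise (chi-square per degree of freedom 1.80 to 2.94 in genes of whole values and 20 reads or more), so none was taken for a repeat deposit. The genes, lists and tests were chosen with earlier results of these data known. All genes of the list could be named. Of each further list the 2 called genes with the largest difference in a comparison were named. Myc, Fos, Orc3 and Orc5 were named besides, after their values were seen. Promoters were printed by the rule given beside them, leaving out genes on chromosome 18. Estimated reads of the 48 genes were never below 22 in a library.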

Additional observations from a re-analysis of the deposited data

How the results depend on the processing

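The counts of genes called depended most on the spread assumed. With a coefficient of variation of 0.4, the counts over all genes fell to 407 higher and 268 lower in CiLC against MEF, 1450 and 1058 in LC against MEF, and 937 and 1314 in CiLC against LC. Among replication genes 0 were then lower in CiLC against MEF, 0 lower in LC against MEF and 0 higher in CiLC against LC; among mitotic genes 0, 11 and 3. With 0.1, 2064 genes were higher and 2141 lower in CiLC against MEF, and of the 40 genes of the list called there 14 lost their call. The single mitotic gene higher in CiLC than in MEF, Cenpe, gave a count of 0 with DESeq2, 0 with 0.1 and 0 with 0.4, and of 0 to 1 with single libraries left out; the cause was not tested. Upper quartile scaling moved the median log2 fold change of all genes in LC against MEF from -0.01 to -0.11, and no gene of the list changed direction. The libraries share only a replicate number in the labels: the deviations of same-numbered libraries had correlations of 0.10, -0.085 and -0.0075 between groups. With the replicate block, 14 replication and 21 mitotic genes were lower in CiLC against MEF, and 3791 and 3714 of all genes were higher and lower. With 2 libraries a group, small called differences, such as those of Kif11 and Rrm2 in CiLC against MEF, lost their call in several settings.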
